A study of Homo sapiens with 6 samples.

Results

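Translation efficiency (TE), the footprint level of a message over its RNA level, was compared between the library pair labelled PRMT1 inhibitor and the DMSO pair in HEK293T cells. For each gene, log2((footprint TPM + 1)/(input TPM + 1)) in the PRMT1-labelled pair minus the same ratio in the DMSO pair was taken, then centred on the median gene, and is called the TE change here. The 8117 members are protein-coding genes whose mean over the 6 libraries of the series was at least 5 TPM, out of 19725 protein-coding genes and 60461 genes listed. TPM is a message's length-scaled share of its library. Because the inhibitor labels may be crossed between the input and footprint assays, a second TE change is given beside the first. It uses the same footprints but the input labelled PRMT4 inhibitor, and wherever a gene has 2 TE changes the value with the PRMT1-labelled input stands before the one with the PRMT4-labelled input.

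Cells were treated with a PRMT1 inhibitor, a PRMT4 (CARM1) inhibitor or, as control, the vehicle DMSO, PRMT1 and PRMT4 being arginine methyltransferases. No compound, dose or time is named in the labels. HEK293T cells derive from human embryonic kidney and express the large T antigen of SV40. Each of the 3 treatments had 1 input library and 1 footprint library, made of the fragments that ribosomes protect, and the labels describe the inputs as ribosome-protected RNA as well. With 1 library per group, no difference given here has a replicate check, no test could be made, and every value describes single libraries, not treatments.

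Ribosome profiling digests the RNA that ribosomes do not cover and sequences the fragments that remain. Dividing footprints by RNA gives the ribosome load per message, which initiation and elongation rates both set. PRMT1 places most of the asymmetric dimethylarginine in human cells, much of it on the RGG motifs of RNA-binding proteins that act in splicing, ribosome production and translation.

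Of the HEK293T markers, VIM stood between 104 and 208 TPM over the 6 libraries, KRT18 between 31.5 and 58.2 TPM, KRT8 between 3.97 and 8.47 TPM, LIN28B between 2.19 and 17.6 TPM and NEFL between 1.5 and 7 TPM. PAX2, CDH2 and NEFM never passed 1.97 TPM. The blood and liver markers PTPRC, CD3E, HBB and ALB were at 0.03 TPM or less in every library, and the fibroblast marker COL1A1 stood between 1.97 and 3.82 TPM. In a bulk library, fewer cells of a type and less RNA per cell cannot be told apart. Protein-coding genes held 62.3% of the TPM in the PRMT1-labelled footprints and 74.3% in the DMSO footprints. They held 38.7% in the PRMT1-labelled input, 33.4% in the PRMT4-labelled input and 45.7% in the DMSO input. PRMT1 itself had 190 TPM of footprints and 90.7 TPM of input in the PRMT1-labelled libraries, 86.1 TPM in the PRMT4-labelled input, and 276 TPM of footprints and 136 TPM of input in DMSO. Its TE change was 0.04, and -0.11 with the PRMT4-labelled input. Inhibitors block the protein, so message levels give no check of the labels.

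Translation starts at an AUG whose neighbours affect how well it is recognised, so the start sites are shown for the messages whose TE changes were large with either input. Among members of at least 20 TPM, the 4 highest and 4 lowest nuclear-encoded messages with a current symbol are given, by the smaller in size of their 2 TE changes. Each is shown with 12 bases on each side of the start codon. MT-CO2, which ranked above AZI2, is left out as mitochondrially encoded. The letters come from the GENCODE release 29 transcript and the positions of the start codon from its GRCh38 annotation, and capitals mark the start codon. Among the 4 highest were CHCHD3 (chr7:133081935-133081937, minus strand), which shapes the inner mitochondrial membrane, and PSMC1 (chr14:90256598-90256600, plus strand), an ATPase of the proteasome. The other highest were MDC1 (chr6:30715173-30715175, minus strand), a scaffold of the DNA damage response, and AZI2 (chr3:28340615-28340617, minus strand), an adaptor of antiviral kinase signalling.
CHCHD3: ggaaccggaatcATGggtgggaccacc
PSMC1: ggccaaggcaagATGggtcaaagtcag
MDC1: ttaaagtagatcATGgaggacacccag
AZI2: cttctggttgtcATGgatgcactggta
Among the 4 lowest were SKIC2 (chr6:31959193-31959195, plus strand), a helicase that feeds the cytoplasmic exosome, and NHERF2 (chr16:2027006-2027008, plus strand), a scaffold of membrane transporters. TTLL12 (chr22:43187067-43187069, minus strand), a tubulin ligase-like protein, and PSMG4 (chr6:3259023-3259025, plus strand), a proteasome assembly chaperone, completed the set.
SKIC2: tgtggctccaggATGatggagacagag
NHERF2: gcagcgggcgccATGgccgcgccggag
TTLL12: ggtgctggcgccATGgaggccgagcgg
PSMG4: ccgtggggcggcATGgaggggctggtt
A strong context is taken here as a purine 3 bases upstream of the ATG together with a G directly after it, an intermediate one as either of these, and a weak one as neither. All 4 of the highest and 3 of the 4 lowest had a strong context, and SKIC2 had an intermediate one. Over the members with a 5′ leader, the median TE change was -0.00 for 3745 strong, -0.00 for 3691 intermediate and 0.02 for 497 weak contexts, so the classes lay together.

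Most messages moved little against the median. The TE changes had quartiles of -0.20 and 0.23 and an SD of 0.35 over genes, and with the PRMT4-labelled input quartiles of -0.19 and 0.20 and an SD of 0.33. The distribution was lopsided: 103 genes, or 1.27%, were at least 2-fold higher than in DMSO and 13 genes, or 0.16%, at least 2-fold lower, so 88.8% of the genes past 2-fold were higher. With the PRMT4-labelled input, 33 genes (0.407%) were at least 2-fold higher and 19 genes (0.234%) at least 2-fold lower, a share of 63.5% higher. Low values carried much of the upper tail, since 58 of the 103 had a mean under 10 TPM, as did 2228 of all members, and only 17 had a mean of 20 TPM or more.

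**Figure D1:**
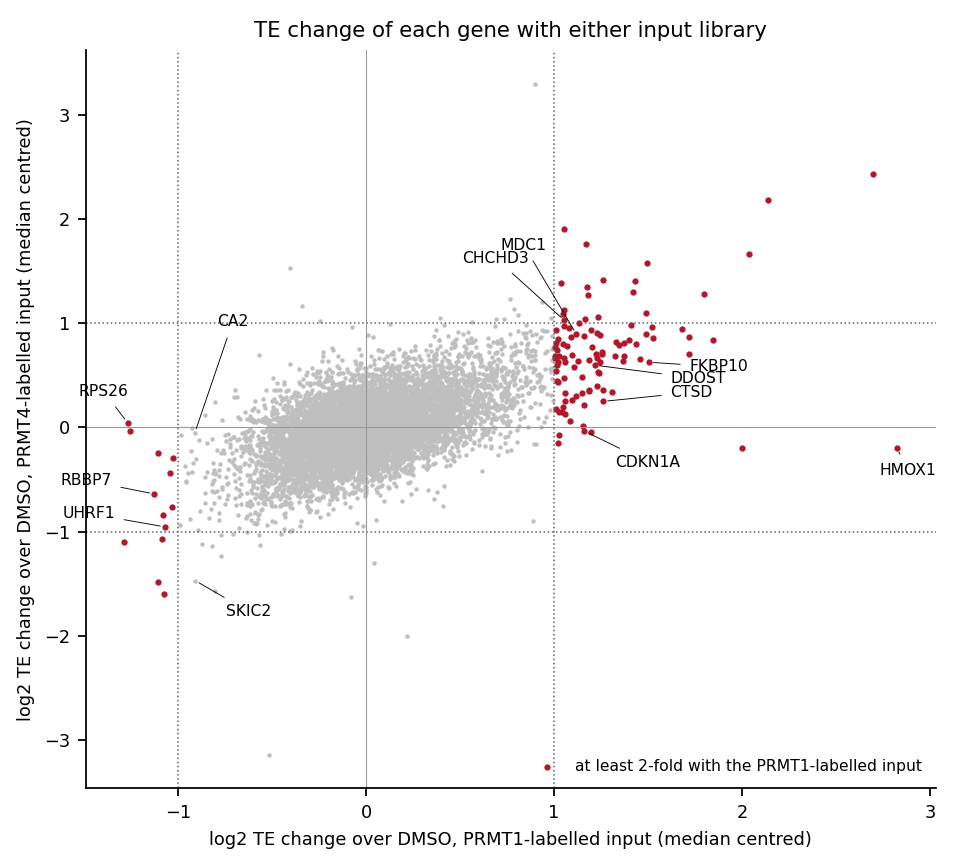
Each point is 1 of 8117 genes, with its median-centred log2 TE change over DMSO from the PRMT1-labelled input on the horizontal axis and from the PRMT4-labelled input on the vertical axis. Red points are at least 2-fold with the PRMT1-labelled input, dotted lines mark 2-fold, and the axes share the footprint and DMSO libraries. Most of the 103 red points on the right lie between 0 and 1 on the vertical axis, and HMOX1 and CDKN1A lie just below 0.

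Of the 103 higher genes, 20 were also at least 2-fold higher with the PRMT4-labelled input, 77 had a positive value under 2-fold, and 6 had a value below 0. Their median was 0.70 with that input. Of the 13 lower genes, 4 were also 2-fold lower, 8 were lower by less, and 1, RPS26, was just above 0. The 4 were ZNF585B, PTPN12, PHF21B and SNTB2, of which the last 3 were picked out after their values were seen. Both TE changes share the footprint and DMSO libraries, so a like sign with either input is not independent evidence. In 62 of the 103 the footprint change alone was at least 2-fold higher, beside 1.18% of all members, whereas the PRMT1-labelled input was at least 2-fold lower in 1, ENSG00000255339, beside 0.0246% of all members at least 2-fold lower and 0.0246% at least 2-fold higher. The median footprint change of the 103 was 1.06 and their median input change was -0.12. Both changes enter the TE change that picked these genes, so their high footprint share follows in part from that choice.

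The inputs differed in how far they stood from DMSO. Centred log2 input changes had an SD of 0.21 under the PRMT1 label and 0.32 under the PRMT4 label, and footprint changes under the PRMT1 label one of 0.37. The log2 ratio of the PRMT1-labelled to the PRMT4-labelled input correlated at r = -0.42 with the same ratio of the footprints over 8117 genes. These ratios share no library, although genes are not independent replicates. Genes with relatively more footprints under the PRMT1 label thus tended to have relatively less input under that label. Which input belongs with which footprints cannot be told apart from these files.

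HMOX1, the stress-inducible heme oxygenase, had the highest TE change among all members and showed how much hung on the input. Its footprints stood at 642 TPM under the PRMT1 label and 33.0 TPM in DMSO. Its input stood at 21.6 TPM under the PRMT1 label, 156 TPM under the PRMT4 label and 7.53 TPM in DMSO. The TE change was 2.82 with the PRMT1-labelled input and -0.20 with the PRMT4-labelled one, made up of a footprint change of 4.41 and an input change of 1.58 or 4.59. HMOX1 thus had the largest TE change of all members under one pairing and stood below the median message under the other.

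CDKN1A, which encodes the cell cycle inhibitor p21, also had a TE change that hung on the input, at a smaller size. Its footprints were at 35.7 TPM under the PRMT1 label and 18.3 TPM in DMSO, and its input was at 10.7 TPM under the PRMT1 label, 22.03 TPM under the PRMT4 label and 12.9 TPM in DMSO. The TE change was 1.16, and -0.04 with the PRMT4-labelled input. PHLDA3, a p53-induced inhibitor of AKT, had 8.25 TPM of footprints under the PRMT1 label and 3.76 TPM in DMSO. Its TE change was 1.03 and -0.07 with the PRMT4-labelled input. For CDKN1A and PHLDA3 the footprint excess was matched by an RNA excess in the PRMT4-labelled input and not in the PRMT1-labelled one. Their input changes under the PRMT1 label were -0.07 and 0.09, whereas that of HMOX1 was 1.58.

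Several messages of the secretory pathway kept a positive TE change with either input. FKBP10, a prolyl isomerase that folds collagen in the ER, had 14.3 TPM of footprints under the PRMT1 label and 6.50 TPM in DMSO. Input was at 37.1 TPM under the PRMT1 label, 59.1 TPM under the PRMT4 label and 52.1 TPM in DMSO, and its TE change was 1.51, or 0.63 with the PRMT4-labelled input. DDOST, a subunit of the oligosaccharyltransferase that attaches N-glycans, had 40.04 TPM of footprints under the PRMT1 label and 17.8 TPM in DMSO. Its input was at 19.6 TPM under the PRMT1 label, 26.2 TPM under the PRMT4 label and 21.04 TPM in DMSO, which gave TE changes of 1.22 and 0.60. CANX, the lectin chaperone calnexin, had 52.4 TPM of footprints under the PRMT1 label and 22.7 TPM in DMSO, and TE changes of 1.02 and 0.44. In all of these the PRMT4-labelled input was above the PRMT1-labelled one, so the TE change shrank but stayed positive.

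Among members of at least 20 TPM, to which the naming was limited, the messages named as highest with either input lay outside that pathway. The limit left out membrane messages of lower level such as the receptor gene LRP8, with a mean of 8.18 TPM and TE changes of 1.53 and 0.86. CHCHD3 had 2630 TPM of footprints under the PRMT1 label and 1769 TPM in DMSO. Its input was at 44.9 TPM under the PRMT1 label, 39.1 TPM under the PRMT4 label and 63.5 TPM in DMSO, and its TE changes were 1.05 and 1.03. CHCHD3 was the only gene with a mean of 20 TPM or more that was at least 2-fold higher with both inputs. Its footprints already stood 4.78 log2 units above its input in DMSO, and 5.63 in the PRMT4-labelled pair. The cause of this excess was not tested, so the TE changes of CHCHD3 are uncertain. PSMC1 had 57.1 TPM of footprints under the PRMT1 label and 33.9 TPM in DMSO, with inputs of 16.5 TPM under the PRMT1 label, 14.8 TPM under the PRMT4 label and 20.9 TPM in DMSO, and TE changes of 1.05 and 0.98. MDC1 had 31.2 TPM of footprints under the PRMT1 label and 17.1 TPM in DMSO, while both inhibitor inputs were at 26.9 TPM and the DMSO input at 33.3 TPM. Its TE changes were 1.12 and 0.90. The set also held AZI2 (0.84 and 0.87), the H3K4 demethylase gene KDM5C (0.86 and 0.81), the transcription factor gene UBP1 (0.79 and 0.80) and ARL2BP, which binds the small GTPase ARL2 (0.77 and 0.90). Among these 7 genes the choice of input moved the TE change by 0.22 or less, and the rule that named them asks for a large value with both inputs. Of the members with no current symbol that the same rule named, ENSG00000267645 stood at 1.195 and 0.93 and ENSG00000260548 at 0.90 and 3.30.

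**Figure D2:**
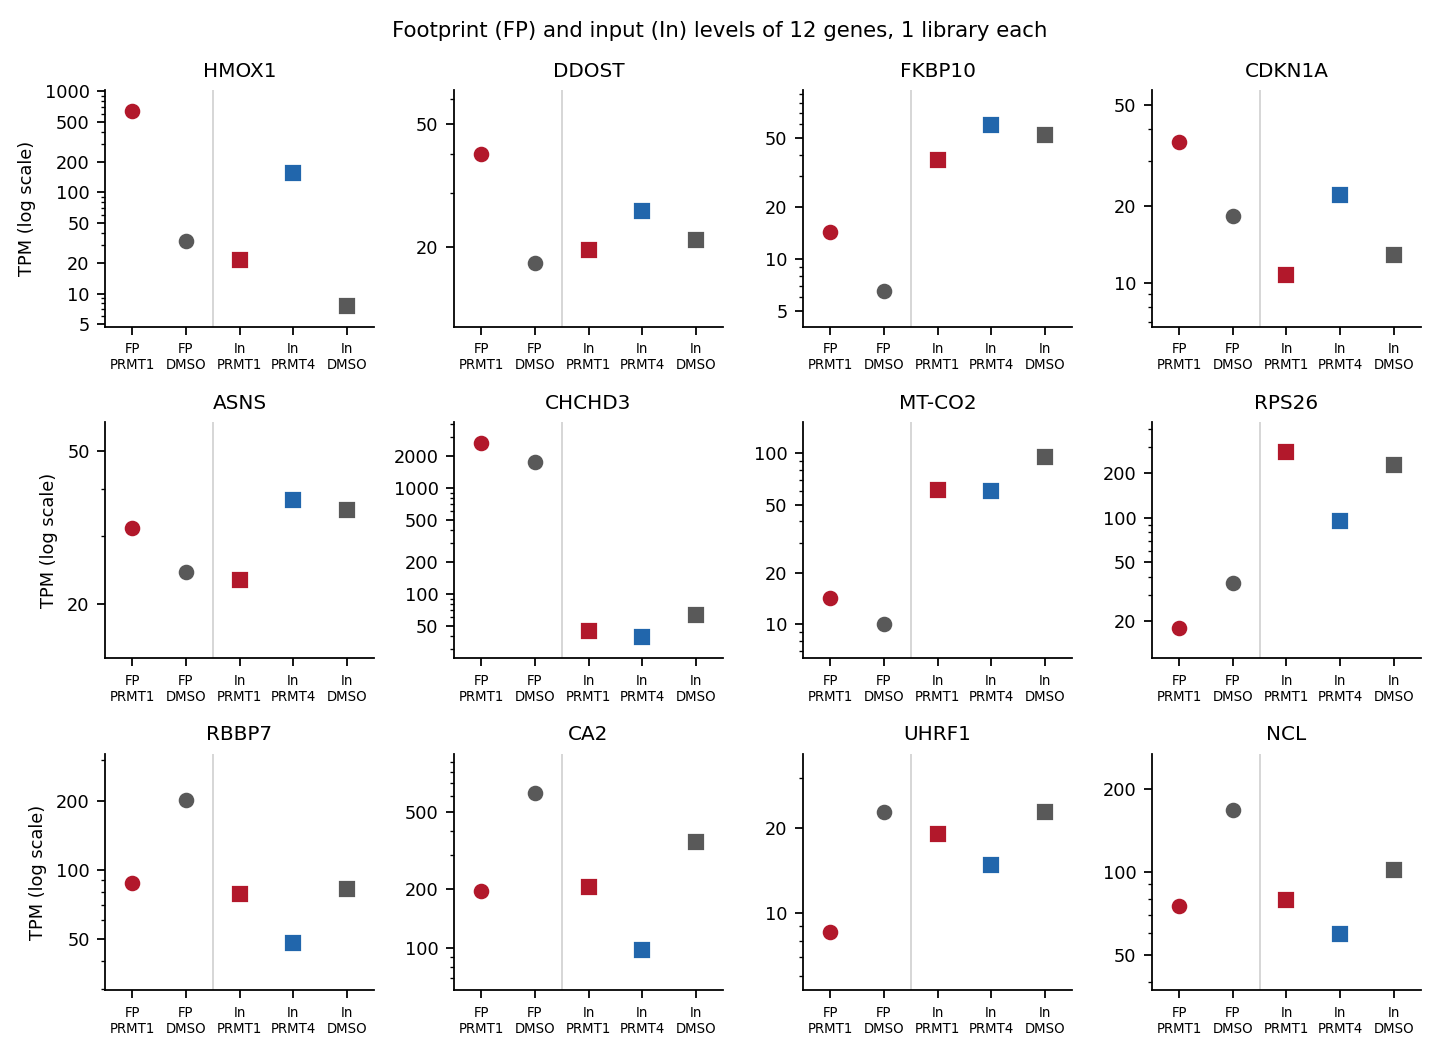
TPM on a log scale in 12 genes, with footprints (FP) as circles and input (In) as squares, 1 library per point, in the order PRMT1 label, PRMT4 label (input only) and DMSO. HMOX1 footprints stand at 642 TPM under the PRMT1 label and 33.0 TPM in DMSO, while its input is at 21.6 TPM under the PRMT1 label, 156 TPM under the PRMT4 label and 7.53 TPM in DMSO. RBBP7 and UHRF1 have lower footprints under the PRMT1 label than in DMSO, at 87.6 against 200.5 TPM and 8.56 against 22.8 TPM.

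At the low end, RBBP7, a histone-binding subunit of several chromatin complexes, had 87.6 TPM of footprints under the PRMT1 label and 200.5 TPM in DMSO. Input levels were 78.6 TPM under the PRMT1 label, 47.6 TPM under the PRMT4 label and 82.3 TPM in DMSO, and its TE changes were -1.13 and -0.64. UHRF1, which guides maintenance DNA methylation, had 8.56 TPM of footprints under the PRMT1 label and 22.8 TPM in DMSO, with TE changes of -1.07 and -0.95. SKIC2 had 21.5 TPM of footprints under the PRMT1 label and 47.1 TPM in DMSO, but inputs of 11.4 TPM under the PRMT1 label, 14.6 TPM under the PRMT4 label and 13.1 TPM in DMSO. Its TE change was -0.91, and -1.47 with the PRMT4-labelled input. In these messages the footprints were under the DMSO level while the PRMT1-labelled input was close to it.

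NHERF2 had 26.3 TPM of footprints under the PRMT1 label and 68.2 TPM in DMSO, and TE changes of -0.83 and -0.87. TTLL12 had 21.9 TPM of footprints under the PRMT1 label and 47.6 TPM in DMSO, and TE changes of -0.78 and -0.89. PSMG4 had 25.2 TPM of footprints under the PRMT1 label and 49.1 TPM in DMSO, and TE changes of -0.81 and -0.73. The calcium-dependent protease gene CAPN1 (-0.68 and -0.96), the ubiquitin-activating enzyme gene UBA1 (-0.68 and -0.65) and the terminal uridylyltransferase gene TUT1 (-0.64 and -0.87) were of the same kind. Footprints carried these values, since the input changes of NHERF2, TTLL12 and PSMG4 lay between -0.35 and 0.04 under either label.

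Other low messages depended on the input. RPS26, a small subunit ribosomal protein whose reads can be shared with near-identical pseudogenes and which is therefore uncertain, had 17.9 TPM of footprints under the PRMT1 label and 36.3 TPM in DMSO. Its input stood at 279 TPM under the PRMT1 label, 95.5 TPM under the PRMT4 label and 229 TPM in DMSO, and its TE changes were -1.27 and 0.05. CA2, the carbonic anhydrase that interconverts carbon dioxide and bicarbonate, had 195 TPM of footprints under the PRMT1 label and 620 TPM in DMSO. The CA2 input was at 206 TPM under the PRMT1 label, 97.1 TPM under the PRMT4 label and 350 TPM in DMSO, with TE changes of -0.91 and -0.05. MIX23 (-0.92 and -0.01) and the nucleolar protein gene LYAR (-0.86 and 0.12) were likewise near the median with the PRMT4-labelled input. BCCIP, which binds BRCA2 and p21 (-0.93 and -0.23), MORC3, a nuclear ATPase (-0.96 and -0.37), HSPA4, a chaperone that exchanges nucleotide on HSP70 (-0.93 and -0.43), and the stress-responsive NDRG1 (-0.86 and -0.47) stayed below 0 with both.

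Named by the same rule, CDK5RAP3, a cofactor of protein UFMylation at the ER, had 54.3 TPM of footprints under the PRMT1 label and 30.2 TPM in DMSO, and TE changes of 1.25 and 0.70. PPP1R16A, a membrane-tethered subunit of protein phosphatase 1, had TE changes of 1.22 and 0.71. ENSG00000255339, ENSG00000267645, ENSG00000260548, ENSG00000167774 and ENSG00000111780 met the naming rule but have no current symbol, and reads at such loci can be shared with overlapping genes, so their values are uncertain. ENSG00000255339 was at 0.54 TPM in the PRMT1-labelled input, 5.05 TPM in the PRMT4-labelled input and 5.37 TPM in the DMSO input, and its TE changes were 2.002 and -0.19.

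Gene groups were described by how many members lay above or below 0, beside 50% of all members on each side, and by their medians beside a median of 0 over all members. The 10 measured of 13 mitochondrially encoded messages, which mitochondrial ribosomes translate, were the highest group, and all 10 were above 0 with either input. Their median TE change was 0.73, and 0.71 with the PRMT4-labelled input. MT-CO2, a cytochrome c oxidase subunit, had 14.2 TPM of footprints under the PRMT1 label and 10.1 TPM in DMSO. The input stood at 60.8 TPM under the PRMT1 label, 60.6 TPM under the PRMT4 label and 95.6 TPM in DMSO, and its TE changes were 1.09 and 0.87. MT-CYB, a subunit of complex III, had 5.47 TPM of footprints under the PRMT1 label and 4.95 TPM in DMSO, with TE changes of 1.01 and 0.81. MT-CO3 (0.20 and 0.53) and MT-ATP8 (0.12 and 0.995) were lowest with the PRMT1-labelled input. Lower input carried more of the group's value than higher footprints, with a median footprint change of 0.27 and median input changes of -0.42 under the PRMT1 label and -0.50 under the PRMT4 label. The footprint TPM of MT-CO2 and MT-CYB is low. In DMSO the log2 ratio of footprints to input was -3.12 for MT-CO2, -3.04 for MT-CO3, -1.605 for MT-CYB and 0.24 for MT-ATP8. Footprints came from monosomes of sucrose gradients, and how far these held mitochondrial ribosomes was not tested. The group's values may therefore not measure mitochondrial translation. The group's median was 0.56 with a pseudocount of 5 and 0.57 over the members with at least 5 TPM in each of the 4 libraries.

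The 78 nuclear-encoded subunits of oxidative phosphorylation did not share that shift, with 37 above 0, 41 below 0 and a median of -0.01. Of these, 52 lay above 0 with the PRMT4-labelled input, where the median was 0.09. NDUFA7, a complex I subunit, was highest at 1.03, and 0.68 with the PRMT4-labelled input. The lowest were ATP5PF of the ATP synthase, at -0.57 and 0.07, and NDUFB8 of complex I, at -0.55 and -0.60. The 79 mitochondrial ribosomal protein messages had a median of -0.06, and -0.00 with the PRMT4-labelled input.

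Surface receptors, integrins and cadherins stood next. Only 22 of the 63 listed reached the 5 TPM minimum, and all 22 were above 0, with a median of 0.46 and 4 at least 2-fold higher, beside 1.27% of all members. With the PRMT4-labelled input, 14 were above 0 and 8 below, the median was 0.07 and 0 reached 2-fold, beside 0.407% of all members. LRP8, a receptor of reelin and apolipoprotein E, had 5.54 TPM of footprints under the PRMT1 label and 2.22 TPM in DMSO, and TE changes of 1.53 and 0.86. FGFR3, a fibroblast growth factor receptor, had 10.3 TPM of footprints under the PRMT1 label and 4.26 TPM in DMSO, and TE changes of 1.25 and 0.73. The transferrin receptor TFRC (0.03 and -0.05) and the complement inhibitor CD59 (0.04 and -0.08) were lowest. All 22 footprint changes were above 0, with a median of 0.44, while the median input change was 0.05 under the PRMT1 label and 0.33 under the PRMT4 label.

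Groups of ER folding and protein entry leaned the same way by their medians. Of 22 measured ER chaperones and folding enzymes, 17 were above 0 and 5 below, with a median of 0.30, or 0.06 with the PRMT4-labelled input. Within them FKBP10 and CANX were highest. ERP44, which retains unassembled proteins (-0.40 and 0.03), and SDF2L1, a partner of the ER HSP40 proteins (-0.37 and -0.53), were lowest. The 32 translocon, oligosaccharyltransferase and signal recognition particle messages had 20 above 0 and a median of 0.16, or 0.05 with the PRMT4-labelled input. In that group the catalytic subunit STT3A stood at 1.01 and 0.54, whereas its paralogue STT3B stood at -0.35 and -0.20, and SRP19 at -0.63 and -0.22. The other signal recognition particle messages were picked out after their values were seen. With the PRMT1-labelled input, SRP9 (-0.22), SRP14 (-0.19) and SRP54 (-0.33) were below 0, and SRP68 (0.09) and SRP72 (0.15) above. The group's median thus does not describe the particle.

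Later steps of the pathway also had medians above 0 that came near 0 with the PRMT4-labelled input. The 36 vesicle coat and cargo receptor messages had 26 above 0 and a median of 0.11, and 19 above 0 and a median of 0.03 with the PRMT4-labelled input. The cargo receptor TMED10 stood at 0.65 and 0.15 and the COPII coat subunit SEC23B at -0.63 and -0.63. The 26 lysosomal and V-ATPase messages had a median of 0.12, or 0.01 with the PRMT4-labelled input. That group pools unlike members. Its ATP6V1 subunits, picked out after their values were seen, ran only from -0.44 (ATP6V1C1) to 0.03 (ATP6V1E1) with the PRMT1-labelled input. At least 2-fold higher were 3 of the 26, beside 1.27% of all members, and 0 with the PRMT4-labelled input, beside 0.407%. Of these, CTSD, the protease cathepsin D, had 11.7 TPM of footprints under the PRMT1 label and 3.51 TPM in DMSO, and TE changes of 1.26 and 0.25. TPP1, a lysosomal peptidase, had 14.3 TPM of footprints under the PRMT1 label and 6.46 TPM in DMSO, and TE changes of 1.32 and 0.69. The other, GAA, the lysosomal alpha-glucosidase, stood at 1.23 and 0.53 and was picked out after its values were seen. The 19 plasma membrane solute carriers had 14 above 0 and a median of 0.19, and 11 above 0 and a median of 0.07 with the PRMT4-labelled input. They ran from the amino acid transporter SLC7A6 at 0.88 and 0.74 to the glucose transporter SLC2A1 at -0.41 and -0.61.

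**Figure D3:**
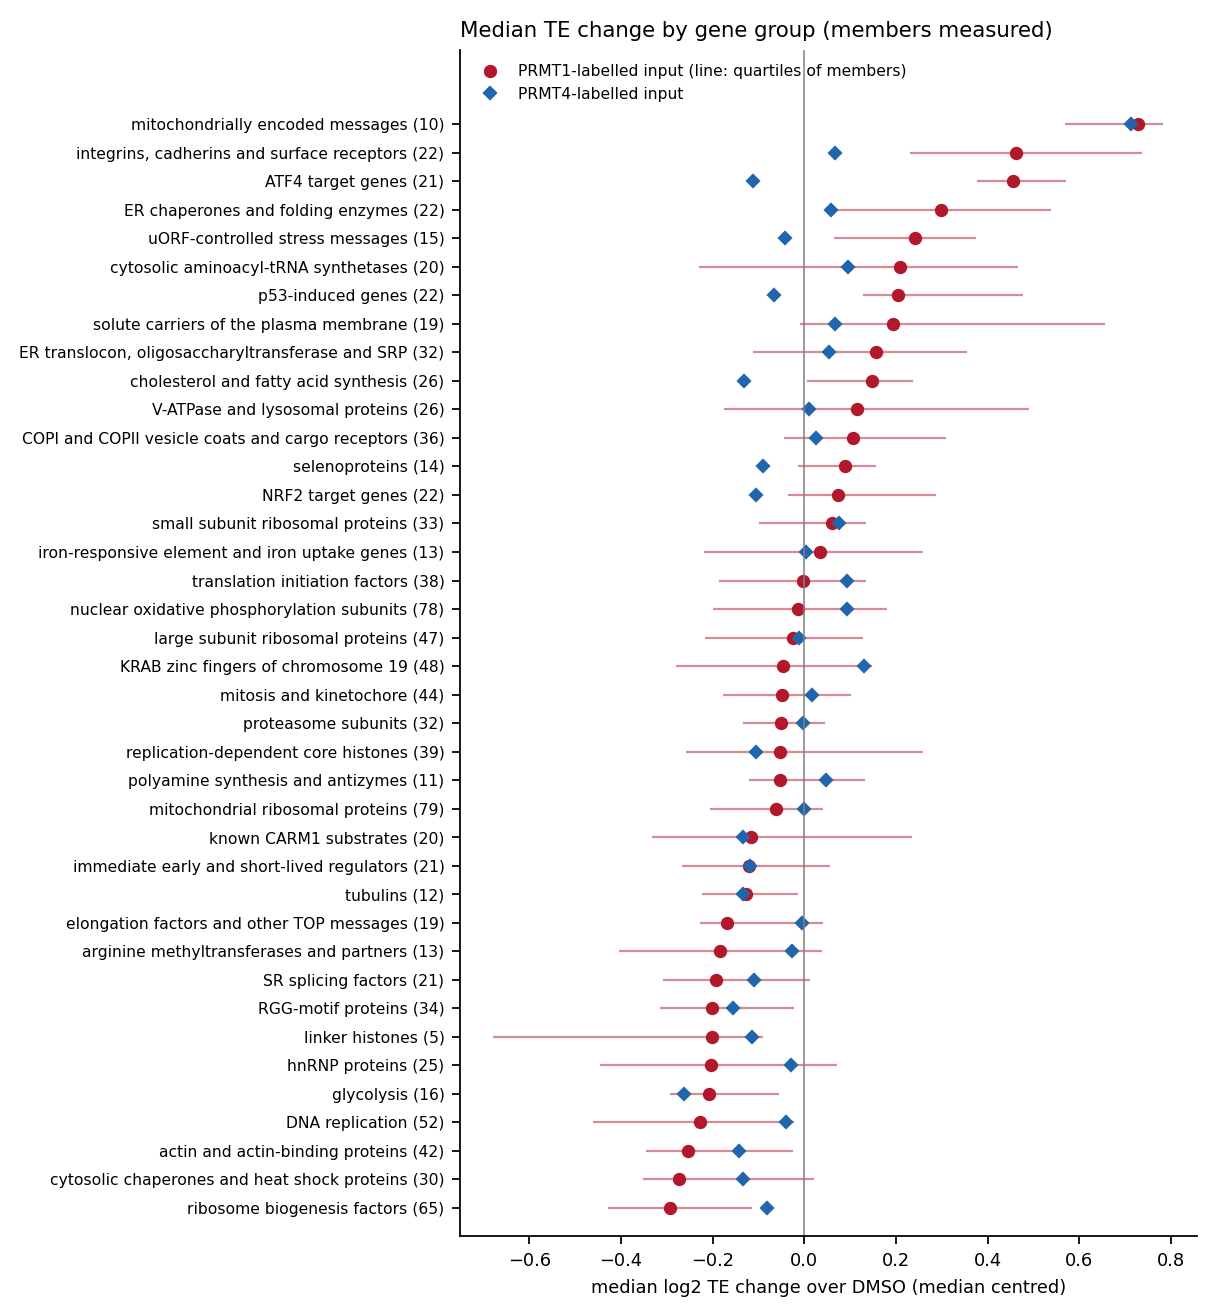
Median log2 TE change over DMSO of 39 gene groups, with the number of measured members in brackets. Red circles use the PRMT1-labelled input, with lines spanning the members' quartiles, and blue diamonds use the PRMT4-labelled input. The mitochondrially encoded messages lie at 0.73 and 0.71, the ATF4 targets at 0.45 and -0.11, and the ribosome biogenesis factors at -0.29 and -0.08.

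The same lean appeared in a property that does not depend on gene lists. Segments of 19 residues with a mean Kyte-Doolittle hydropathy of at least 1.6, a usual sign of a membrane span or signal peptide, were counted in the protein translated from each GENCODE release 29 transcript, for 8051 members. The median TE change was -0.03 for the 6102 proteins with none, 0.07 for the 1152 with 1, 0.16 for the 482 with 2 to 3, 0.23 for the 188 with 4 to 6 and 0.30 for the 127 with at least 7. The share of genes above 0 went with it, at 45.1%, 58.7%, 70.1%, 80.3% and 83.5% over the same classes. With the PRMT4-labelled input the medians were -0.00, 0.01, 0.01, 0.09 and 0.03, and the shares ran from 49.5% to 58.5%. At least 1 segment was found in 24.2% of members, in 55 of the 97 higher genes with a known transcript (56.7%) and in 0 of the 12 lower genes with one. It was found in 12 of 30 higher genes and 4 of 14 lower genes with the PRMT4-labelled input.

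Footprints and the PRMT4-labelled input both followed the number of segments, and the PRMT1-labelled input hardly did. From no segment to at least 7, the median footprint change was -0.04, 0.08, 0.20, 0.38 and 0.36. The median input change was -0.00, -0.01, 0.04, 0.08 and 0.07 under the PRMT1 label and -0.04, 0.09, 0.19, 0.28 and 0.34 under the PRMT4 label.

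GC content moved with the TE change too, and in opposite directions for the 2 inputs. Transcripts under 40% GC had a median TE change of -0.11, and those of at least 60% GC one of 0.09. With the PRMT4-labelled input the medians were 0.14 under 40% and -0.15 at 60% or more. The footprint change was flat, at 0.02 and 0.01 in these classes, and the inputs were not. The PRMT1-labelled input change was 0.12 under 40% GC and -0.09 at 60% or more, and the PRMT4-labelled one was -0.12 and 0.18. With the PRMT1-labelled input the segment classes kept their order within GC classes. Proteins with at least 4 segments had median TE changes of 0.15, 0.27 and 0.40 under 45%, from 45 to 55% and from 55% GC, and proteins with none had -0.11, -0.02 and 0.03. The PRMT4-labelled input gave those with at least 4 segments 0.11, 0.03 and 0.02 and those with none 0.11, -0.00 and -0.14.

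**Figure D4:**
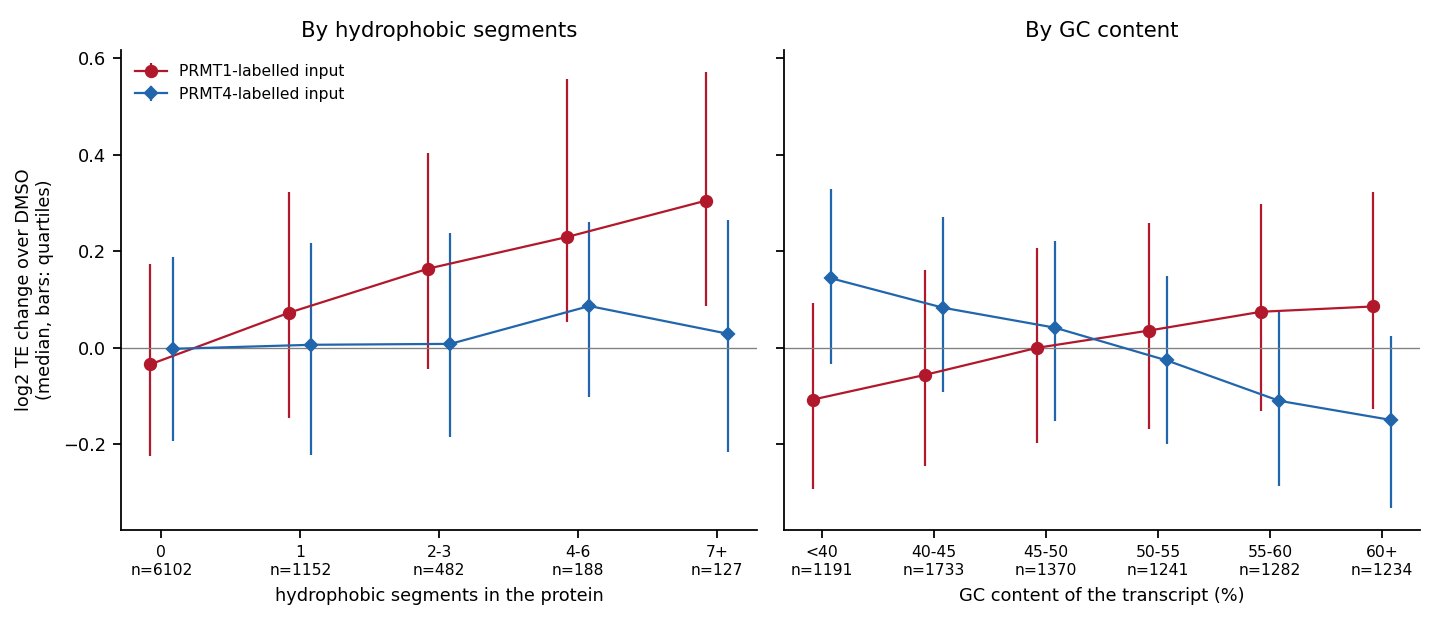
Median log2 TE change over DMSO, with bars to the quartiles over genes, by the number of hydrophobic segments in the protein (left) and by GC content of the transcript in percent (right). Red uses the PRMT1-labelled input and blue the PRMT4-labelled input. Red climbs to 0.30 at 7 or more segments where blue is at 0.03, and the 2 lines cross between 45 and 55% GC.

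ATF4 targets, genes that the stress factor ATF4 switches on, many of them for amino acid supply, were above 0 in all 21 measured of 29 listed. Their median was 0.45. Only 7 were above 0 with the PRMT4-labelled input, 14 were below, and the median was -0.11. ASNS, asparagine synthetase, had 31.6 TPM of footprints under the PRMT1 label and 24.2 TPM in DMSO. ASNS input was at 23.0 TPM under the PRMT1 label, 37.3 TPM under the PRMT4 label and 35.1 TPM in DMSO, with TE changes of 0.95 and 0.05. VEGFA, the vascular growth factor, stood at 0.84 and 0.10, and the hormone gene STC2 at 0.19 and -0.70. The group's median footprint change was only 0.14, beside median input changes of -0.26 under the PRMT1 label and 0.23 under the PRMT4 label.

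Messages controlled by upstream open reading frames, which can be loaded more when initiation factor eIF2 is phosphorylated, gave a like picture. Of 15, 13 were above 0 with a median of 0.24, and 5 were above 0 with the PRMT4-labelled input, with a median of -0.04. ATF4 itself had 509 TPM of footprints under the PRMT1 label and 457 TPM in DMSO. In the inputs it had 255 TPM under the PRMT1 label, 374 TPM under the PRMT4 label and 365 TPM in DMSO, with TE changes of 0.66 and -0.11. DDIT3, the stress factor CHOP, had 13.6 TPM of footprints under the PRMT1 label and 5.24 TPM in DMSO, with TE changes of 1.01 and 0.45. SLC35A4 stood at -0.09 and -0.02 and IBTK at -0.10 and 0.04. Over all members, those with no upstream AUG in the leader had a median TE change of -0.03 and those with at least 5 one of 0.06, and -0.01 and 0.02 with the PRMT4-labelled input.

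The 20 cytosolic aminoacyl-tRNA synthetases, which charge tRNAs, split into 12 above and 8 below 0, with a median of 0.21 and 0.09 with the PRMT4-labelled input. CARS1 had 25.4 TPM of footprints under the PRMT1 label and 14.7 TPM in DMSO, and TE changes of 1.15 and 0.33. GARS1, at 1.01 and 0.18, had an input change of -0.70 under the PRMT1 label. HARS1 stood at -0.44 and -0.47. The p53-induced genes, in a line whose large T antigen binds p53, had 19 of 22 above 0 and a median of 0.20, and 9 above 0 with a median of -0.07 with the PRMT4-labelled input. CDKN1A and PHLDA3 led them, and RRM2B, a ribonucleotide reductase subunit (-0.12 and -0.17), and TP53I3 (-0.18 and -0.65) were lowest.

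**Figure D5:**
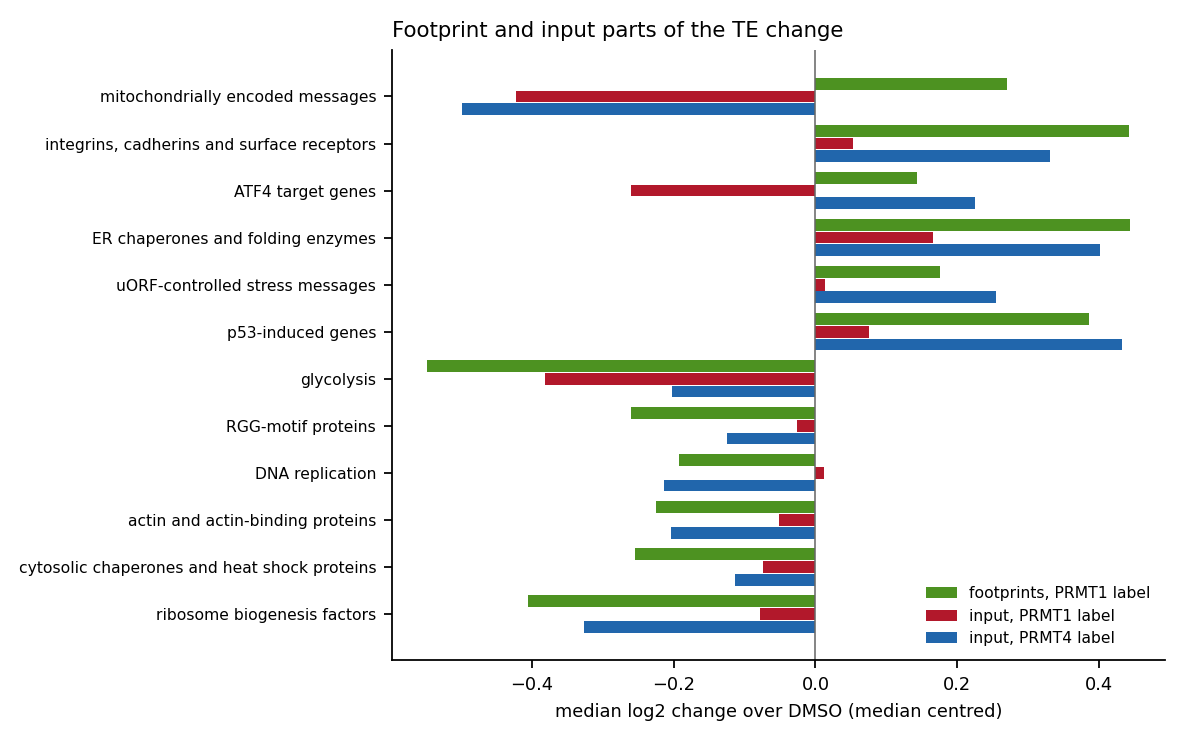
Median log2 change over DMSO of footprints under the PRMT1 label (green), input under the PRMT1 label (red) and input under the PRMT4 label (blue) for 12 gene groups, each centred on the median gene. The TE change is the footprint change less the input change. For ATF4 targets the bars stand at 0.14, -0.26 and 0.23, and for ribosome biogenesis factors at -0.41, -0.08 and -0.33.

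Several nuclear and cytosolic groups leaned below 0. Ribosome biogenesis factors, which build the subunits in the nucleolus, had 56 of 65 measured members below 0 and a median of -0.29, and 38 below 0 and a median of -0.08 with the PRMT4-labelled input. GNL3, the nucleolar GTPase nucleostemin, had 52.4 TPM of footprints under the PRMT1 label and 89.0 TPM in DMSO. The GNL3 input was at 100.7 TPM under the PRMT1 label, 59.1 TPM under the PRMT4 label and 103 TPM in DMSO, and its TE changes were -0.73 and -0.19. DDX21, a nucleolar helicase, stood at -0.65 and -0.21. TCOF1, the nucleolar protein treacle, at 0.44 and 0.04, and NOP56, a core protein of box C/D particles, at 0.24 and 0.25, were highest.

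RGG-motif proteins, many of them PRMT1 substrates, had 27 of 34 below 0 and a median of -0.20, and 24 below 0 and a median of -0.16 with the PRMT4-labelled input. NCL, nucleolin, had 75.2 TPM of footprints under the PRMT1 label and 167 TPM in DMSO. Its input was at 79.3 TPM under the PRMT1 label, 59.6 TPM under the PRMT4 label and 102 TPM in DMSO, with TE changes of -0.79 and -0.61. FMR1, the fragile X protein that binds polysomes, had 5.85 TPM of footprints under the PRMT1 label and 10.7 TPM in DMSO, with TE changes of -0.91 and -0.30. The cold-inducible RNA-binding proteins CIRBP (0.28 and -0.21) and RBM3 (0.10 and 0.10) were highest. The 25 hnRNP proteins had 18 below 0 and a median of -0.20, but -0.03 with the PRMT4-labelled input. HNRNPM (-0.55 and -0.65) and HNRNPL (-0.54 and -0.47) were lowest with the PRMT1-labelled input, and PCBP2 was highest at 0.38 and 0.49. The 21 SR splicing factors and their kinases had a median of -0.19, or -0.11 with the PRMT4-labelled input, from the kinase CLK2 at 0.59 to TRA2B at -0.56.

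Among the arginine methyltransferases and their partners, 7 of 13 were below 0, with a median of -0.18, or -0.03 with the PRMT4-labelled input. WDR77, the partner of PRMT5, had 60.2 TPM of footprints under the PRMT1 label and 125 TPM in DMSO, with TE changes of -0.69 and -0.58. PRMT5 itself stood at 0.24 and 0.19, PRMT3 at 0.48 and 0.30 and CARM1 at -0.18 and -0.45. The 20 known CARM1 substrates had a median of -0.12 and -0.13 with the PRMT4-labelled input.

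Glycolysis was low with either input. Of 16 measured of 18 listed, 13 were below 0 with each input, and the medians were -0.21 and -0.26. All 16 footprint changes were below 0, with a median of -0.55, and all 16 input changes under the PRMT1 label were as well, with a median of -0.38. LDHA, lactate dehydrogenase A, had 485 TPM of footprints under the PRMT1 label and 1117 TPM in DMSO. Its input was at 251 TPM under the PRMT1 label, 144 TPM under the PRMT4 label and 417 TPM in DMSO, with TE changes of -0.48 and 0.09. ALDOC, an aldolase, stood at -0.59 and -0.81, while ALDOA stood at 0.19 and -0.09 and the enolase ENO2 at 0.19 and -0.33.

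DNA replication messages had 41 of 52 below 0 and a median of -0.23, and 30 below 0 and a median of -0.04 with the PRMT4-labelled input. After UHRF1 the lowest was the replication factor gene MCM10, at -0.71 and -0.25, and the kinase gene CDC7 was highest at 0.50 and 0.56. Actin and actin-binding messages had 32 of 42 below 0 and a median of -0.25, or -0.14 with the PRMT4-labelled input. ENAH, which elongates actin filaments, stood at -0.82 and -0.54, and the ARP2/3 subunit ARPC1B at -0.78 and -0.41. The crosslinker FLNA was highest with the PRMT1-labelled input, at 0.41, but stood at -0.75 with the PRMT4-labelled one. Cytosolic chaperones and heat shock proteins had 22 of 30 below 0 and a median of -0.27, or -0.13 with the PRMT4-labelled input, with HSPA4 lowest and the constitutive HSC70 gene HSPA8 highest at 0.49 and 0.23.

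Messages of ribosomal proteins and initiation factors lay near the median gene. The 47 large subunit ribosomal protein messages had 21 above 0 and 26 below, with a median of -0.03, and -0.01 with the PRMT4-labelled input. The 33 small subunit messages had 20 above 0 and 13 below, with a median of 0.06, and 0.08 with the PRMT4-labelled input. RPS19 had 6830 TPM of footprints under the PRMT1 label and 4685 TPM in DMSO, with TE changes of 0.70 and 0.57, and RPL32 stood at 0.44 and 0.62. RPL3, at -0.42 and -0.73, and RPL5, at -0.50 and -0.41, were low with either input. The 38 initiation factor messages had a median of -0.00, and 0.09 with the PRMT4-labelled input. EIF4EBP1, the repressor of cap-dependent initiation, was highest at 0.88 and 0.20, and EIF1 followed at 0.70 and 0.39. Elongation factors and other TOP messages, whose 5′ pyrimidine tract ties them to mTORC1, had 12 of 19 below 0 and a median of -0.17, or -0.01 with the PRMT4-labelled input.

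The level of a message also went with its TE change when the PRMT1-labelled input was used. Members of 5 to 10 TPM had a median TE change of 0.06 with an SD of 0.41 over genes, and members of at least 100 TPM one of -0.06 with an SD of 0.28. With the PRMT4-labelled input these medians were 0.01 and -0.00. The level is a mean that includes the libraries of the ratio. The 5 TPM minimum cut through no gap. DHX35, SCAMP5, PARP16, CYB5R1 and SDC3 lay just under it, at 4.988 to 4.997 TPM, with values from 0.01 to 0.73, and ZBTB11, SMC2, CEP112, LPP and OSBPL3 lay just above it, at 5 to 5.01 TPM, with values from -0.48 to 0.35.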

How the data were processed

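Per the submitters' processing notes, the tools were STAR 2.4.2a, RSEM 1.2.22, Bowtie 1.1.2 and cutadapt 1.18 and the build was GRCh37.p13, with no step named. The values were deposited by the authors as TPM, with 1 column per library, and TPM holds no sequencing depth, which is therefore unknown. Per the labels' protocols, lysates were treated with RNase I and monosomes were taken from sucrose gradients. How the input RNA was made is not given in the sources.

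From these values, log2((TPM + 1)/(TPM + 1)) was computed with Python 3.11.15, numpy 2.4.6 and pandas 2.3.3. The pseudocount of 1 understates changes of low genes. The 41 pseudoautosomal Y copies were dropped, which left 60420 genes. Each quantity was centred on its median over the 8117 members: before centring this was 0.01 for the TE change, 0.23 with the PRMT4-labelled input, and -0.17 for footprints. For the inputs it was -0.17 under the PRMT1 label and -0.38 under the PRMT4 label. Genes at least 2-fold from DMSO were counted, and the ratio script was tested on simulated data. GENCODE release 29 (GRCh38) gave gene types, transcripts and start codons for 8051 members, read with Biopython 1.88, and it served for no position in the authors' build. Figures were drawn with matplotlib 3.10.9.

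The members, the 40 gene lists and the naming rule were chosen with earlier results of these data known, and 39 lists had at least 5 members. Among members of at least 20 TPM, the naming took the 10 with the highest and 10 with the lowest TE change, and the 10 highest and 10 lowest by the smaller of the 2 TE changes where their signs agreed. It added up to 2 highest and 2 lowest members of each list, PRMT1 and CARM1. The alternatives, 12 in number, changed the pseudocount, the filter, the centring, the input library, the scaling, or removed a trend with level (lowess, statsmodels 0.14.6) or with GC content and length. No replicates existed, so no test was run.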

Additional observations from a re-analysis of the deposited data

How the results depend on the processing

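No paired analysis was possible because each group had 1 library and the labels carry no replicate numbers, and for the same reason no replicate could be left out. Counts of genes at least 2-fold higher and lower were 103 and 13, against 125 and 20 with a pseudocount of 0.5, 16 and 2 with 5, 178 and 36 with a minimum of 1 TPM, 18 and 2 with 20 TPM, 220 and 38 with no filter, 37 and 5 with 5 TPM in each of the 4 libraries, 33 and 19 with the PRMT4-labelled input, and 47 and 9 with the mean of both inhibitor inputs. The share that was higher ran from 63.5 to 90.0% over all 12 alternatives. With the PRMT4-labelled input the medians turned to -0.043 for messages with upstream open reading frames, -0.11 for ATF4 targets and -0.065 for p53-induced genes. They came nearer 0 for aminoacyl-tRNA synthetases (0.095), ER chaperones (0.058), surface receptors (0.066), cytosolic chaperones (-0.13), hnRNP proteins (-0.030), ribosome biogenesis (-0.082), DNA replication (-0.040), linker histones (-0.11) and actin genes (-0.14). Of 185 named genes, 39 had the opposite sign with that input, among them 5 of the 28 past 2-fold: HMOX1 (-0.20), ENSG00000255339 (-0.19), CDKN1A (-0.035), PHLDA3 (-0.067) and RPS26 (0.047). Part of the naming asked for agreeing signs, which lowers these counts, and the share over all members is not given. The counts therefore do not measure how far the TE changes hold with either input. With the mean of both inputs the medians were 0.12 for synthetases, 0.0465 for upstream open reading frames, 0.20 for ATF4 targets, 0.20 for ER chaperones, 0.28 for receptors, -0.19 for ribosome biogenesis, -0.13 for DNA replication, -0.11 for actin genes and 0.12 for p53-induced genes. The ER chaperone median was 0.20 with a pseudocount of 5 and 0.65 at 20 TPM, where that of synthetases was 0.13 and that of hnRNP proteins -0.10, and the linker histone median was -0.12 with no filter. The cause was not tested for any of these, and the filters change which genes are counted. Of the recomputed medians of lists at 0.2 or more from 0, 152 kept their sign and stayed within 1.5 times the value reported. Another 23 kept their sign but moved by more, and 3 changed sign. Depth is unknown, so counting error has no interval here.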

Other observations

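Zinc finger genes of the KRAB family on chromosome 19, repressors of mobile elements, had a median TE change near 0 and a shift in both of its parts. Of 137 listed, 48 passed the 5 TPM minimum. Their median footprint change was 0.32 and their median PRMT1-labelled input change was also 0.32, with all 48 inputs above 0, which left a median TE change of -0.05. The PRMT4-labelled input change was 0.06, and the TE change with that input was 0.13, with 35 of 48 above 0. ZNF780A stood at 0.85 and 0.98 and ZNF44 at 0.82 and 0.62, while ZNF585B stood at -1.29 and -1.10. Many of these genes are related in sequence, so some of their reads can be shared.

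Replication-dependent core histones, a family of near-identical copies, had 17 of 39 measured members above 0 and a median of -0.05, or -0.10 with the PRMT4-labelled input. H3C13 had 1268 TPM of footprints under the PRMT1 label and 2876 TPM in DMSO, with TE changes of -0.59 and -0.92. H4C12 was listed at 0 in the PRMT1-labelled and the DMSO footprints, so its ratio reflects its input alone.

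Cholesterol and fatty acid synthesis genes had 19 of 26 above 0 with a median of 0.15, and 8 above 0 with a median of -0.13 with the PRMT4-labelled input. The desaturase gene FADS1 stood at 0.71 and -0.18. NRF2 target genes, HMOX1 included, had 14 of 22 above 0 and a median of 0.07, or -0.10 with the PRMT4-labelled input, and GCLM, which makes glutathione, stood at 0.98 and 0.31. MYC had 225 TPM of footprints under the PRMT1 label and 456 TPM in DMSO, with TE changes of -0.56 and -0.16, in a group of 21 short-lived regulators with a median of -0.12 with either input. The 12 tubulins had medians of -0.13 with either input, and the 32 proteasome subunits had -0.05 and -0.00.

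Proteins of at least 1200 residues had a median TE change of 0.13, or 0.06 with the PRMT4-labelled input, and the shorter classes lay between -0.02 and -0.01. Genes in the lowest quintile of DMSO TE had a median TE change of 0.17, or 0.13 with the PRMT4-labelled input, and those in the highest quintile had -0.07 and -0.06. The DMSO libraries enter both quantities, and the part this plays was not tested. By TE in the PRMT4-labelled pair, which holds no library of the PRMT1-labelled pair, the lowest quintile had a median of 0.19 and the highest -0.09. With the PRMT4-labelled input, which that ordering shares, they were 0.05 and 0.02.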
